A study of Mus musculus with 4 samples.

Results

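CD8 T cells with the CD44high CD62Lhigh surface phenotype of central memory cells, called P2, were compared with CD8 T cells with the CD44low CD62Lhigh phenotype of naive cells, called P1. The comparison used 2 of the 4 arrays of the series and all genes that were well above background on at least 1 of these 2 arrays, which were 12955 of 22911 genes named on the array. The cells came from spleen and lymph node of PD-1-/- mice on the C57BL/6 background, aged 1 to 3 months and left untreated. The loss of PD-1, a coinhibitory receptor of activated T cells encoded by Pdcd1, was thus shared by every subset, and no PD-1-sufficient mice were analysed here. The other arrays held P3, which was CD44high CD62Llow, and P4, which was CD44low CD62Llow, and they are used below only to place the P2 and P1 levels. Each subset had 1 single-colour array with Cy3-labelled RNA. The sources used here do not say how many mice gave the cells of an array.

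Naive CD8 T cells circulate between blood and lymph nodes, which they enter with the help of CD62L, and they keep a programme of quiescence. CD44 density goes up after a T cell responds to antigen or to cytokines such as interleukin 15, and cells that keep CD62L along with high CD44 are long-lived and recall their functions quickly. In unimmunised mice this phenotype includes virtual memory cells, which form without foreign antigen under interleukin 15 and are known for Eomes, for CD122 and for inhibitory receptors of the Ly49 family. The arrays did not separate virtual memory cells from antigen-experienced ones.

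Levels are log2 processed signals minus the log2 of the array's 75th percentile, so that a level of 0 equals that percentile, and differences are P2 minus P1. The 75th percentile signal was 480 in P2 and 481 in P1, and 27827 probes in P2 and 28033 in P1 were well above background. With 1 array a side there was no replicate check and no test, and genes are described by size, with at least 2-fold as the limit. Repeated spots of a probe gave the 95% half-width that spot noise alone lends to a log2 difference. It was 0.16 at levels of 0 or more, 0.31 from -3 to 0 and 0.59 below -3, and it leaves out variation between animals, cell sorts and labellings. Array position on the slide and subset cannot be told apart. In bulk RNA of sorted cells, more cells that carry a transcript and more transcript per cell cannot be told apart either.

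Pdcd1 had levels of -3.06 in P2 and -3.30 in P1, which was dim on both arrays, and 1.76 in P3 and 1.70 in P4. On the P2 array its spot sat in a bright patch, meaning an area where neighbouring spots were raised on that array as well. Whether the probe reads the deleted region is unknown here, and these values are no check of genotype or labels. Cd44 had levels of 2.26 in P2 and -1.80 in P1, a difference of 4.06 (16.7-fold), and its levels in P3 and P4 were 2.11 and -1.24. The Cd44 transcript was therefore high on both CD44high arrays and low on both CD44low arrays. Of the 17 genes of the T cell receptor, its signalling chain and the CD8 lineage, 0 were at least 2-fold higher and 0 lower, with a median difference of -0.05. Cd8b1, the beta chain of the coreceptor, stood at 7.52 in P2 and 7.92 in P1, Cd8a at 4.77 in P2 and 5.02 in P1, and the kinase gene Lck at 7.42 in P2 and 7.44 in P1. The costimulatory receptor gene Cd28 differed most among them, at 0.74.

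Of the 12955 genes, 616 were higher in P2 by at least 2-fold, 328 lower by at least 2-fold, and 12011 (92.7%) lay within 2-fold. The share called over all measured genes was thus 4.75% higher and 2.53% lower, and counts within gene groups are to be read against these shares. The median difference over all genes was -0.06. Large differences were mostly on the higher side: 100 genes were at least 8-fold higher and 18 at least 8-fold lower, and 21 against 1 were at least 32-fold apart. Genes called higher were dim in P1, with a median level of -1.47 in P2 and -3.86 in P1, and genes called lower had medians of -3.28 in P2 and -1.58 in P1. Among genes above background on both arrays 389 were higher and 217 lower, and the remaining 227 and 111 are bounds, because the signal of 1 side was not well above background. Spots in bright patches made up 14.4% of the higher genes, 20.7% of the lower ones and 2.45% of those within 2-fold. Of 198 genes called with several probes, 131 had every probe 2-fold apart the same way and in 9 the probes differed in sign. Near the limit, 240 genes were between 1.8-fold and 2-fold apart and 149 between 2-fold and 2.2-fold.

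**Figure D1:**
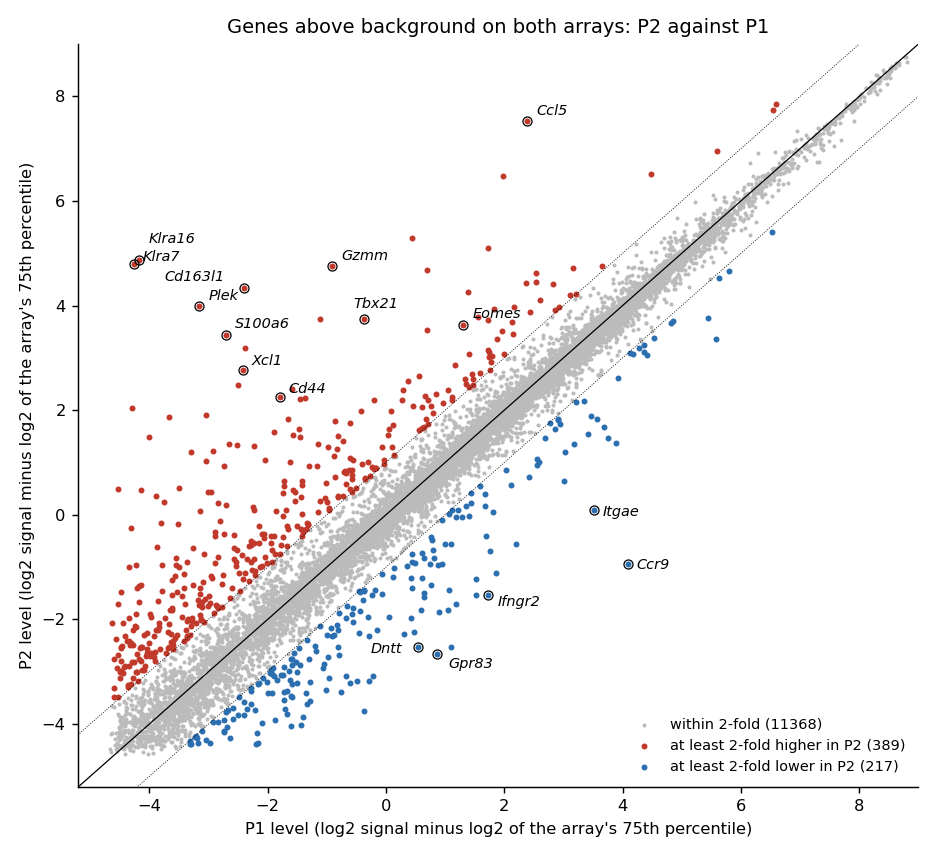
Each point is 1 gene above background on both arrays, with its level in P2 on the vertical axis and in P1 on the horizontal axis (log2 signal relative to the array's 75th percentile). The solid line marks equal levels and the dotted lines 2-fold; 389 genes lie above the band and 217 below it, and circles mark the genes named.

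Among genes above background on both arrays, the largest differences belonged to Ly49 receptor genes of the Klra family, whose products bind MHC class I on other cells and, in most members, inhibit natural killer cells and some memory CD8 T cells. Klra7 had levels of 4.79 in P2 and -4.26 in P1, a difference of 9.05 (532-fold). Klra16 had levels of 4.88 in P2 and -4.17 in P1, a difference of 9.04. It was not among the genes of the chromosome 6 stretch described below, and which copies its probe reads could not be looked up. Klra7 and Klra16 were both near the bottom of the measurable range in P1 and bright in P2. Klra8, which encodes the activating receptor Ly49H, had levels of 2.04 in P2 and -4.29 in P1, a difference of 6.33, and its 3 probes all gave at least 5.17. Klra4 stood at 4.09 in P2 and -5.43 in P1 and was at least 433-fold higher in P2, since its P1 signal was not well above background. Klra9 and Klra5 were at least 62.2-fold and 47.5-fold higher by the same reckoning, although a second Klra5 probe differed by 0.69, and Klra6 and Klra10 at least 16.2-fold and 8.52-fold. The exception among measured members was Klra1, with levels of 1.27 in P2 and 0.71 in P1. Thus 8 of 9 measured Ly49 genes passed 2-fold in P2 and 0 were lower, with a median difference of 5.96, and Klra2 and Klra17 were not above background on either array. These genes are near-identical copies whose probes can share targets, so the levels of single members are uncertain and do not count as independent observations. On the other arrays Klra7 stood at 1.60 in P3 and -1.56 in P4, and Klra4 at 0.41 in P3 and -3.14 in P4, below their P2 levels in each case.

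The promoters of 3 members are shown because these genes were higher together. RefSeq promoter windows of assembly GRCm38.p6 hold 300 bases around the start, most of them upstream, and are written 5′ to 3′, with capitals for any match to the 4 motifs given below. Klra4 lies at chr6:130067222-130067521, minus strand, Klra8 at chr6:130129849-130130148, minus strand for its first start, and Klra7 at chr6:130233273-130233572, minus strand for its second start.
Klra4: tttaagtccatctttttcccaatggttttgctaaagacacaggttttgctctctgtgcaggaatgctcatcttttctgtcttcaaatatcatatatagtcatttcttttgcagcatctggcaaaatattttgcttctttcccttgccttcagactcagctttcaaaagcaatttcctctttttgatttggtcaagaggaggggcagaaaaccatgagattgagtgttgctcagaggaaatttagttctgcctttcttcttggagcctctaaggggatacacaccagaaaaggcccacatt
Klra8: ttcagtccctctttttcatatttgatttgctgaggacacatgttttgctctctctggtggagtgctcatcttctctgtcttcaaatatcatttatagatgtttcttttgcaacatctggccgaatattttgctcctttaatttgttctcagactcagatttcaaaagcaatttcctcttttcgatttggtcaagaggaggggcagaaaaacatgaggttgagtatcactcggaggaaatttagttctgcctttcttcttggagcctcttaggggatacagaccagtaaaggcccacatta
Klra7: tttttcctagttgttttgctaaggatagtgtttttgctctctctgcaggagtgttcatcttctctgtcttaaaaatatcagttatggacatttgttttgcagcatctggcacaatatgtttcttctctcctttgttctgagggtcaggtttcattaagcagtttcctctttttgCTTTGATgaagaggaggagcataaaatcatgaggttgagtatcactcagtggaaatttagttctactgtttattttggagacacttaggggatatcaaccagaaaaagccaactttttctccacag
These starts are the ones most alike. Over the aligned length the Klra4 and Klra8 windows were 86.0% identical and the Klra4 and Klra7 windows 73.7%. Klra4 shared 57.7% with the other start of Klra8, 46.6% with the other start of Klra7 and 50.7% with Klra9, against 46.6% with Cxcr3, a gene of another family. In the windows shown 1 motif match, to the TCF1 and LEF1 letters, was found, in Klra7.

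The Klra genes lie in the natural killer gene complex of chromosome 6, next to other lectin-like receptor genes. Of 44 genes on the array in this stretch of the RefSeq order, 25 were measured, and 15 of these passed 2-fold in the higher direction and 0 in the lower one. Among genes named Klr, 14 of 16 measured were higher, against 1 of 9 measured others, which was BC035044 at 1.60. No other run of neighbours was as long: 10 measured genes in a row, from Klrk1 to Klra10, were higher. Cd69, an early activation gene within the complex, stood at 4.29 in P2 and 4.06 in P1, and Clec2d, which encodes the ligand of the receptor NKR-P1D, at 1.95 in P2 and 2.28 in P1. Both lay within 2-fold although they sit among these receptors.

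**Figure D2:**
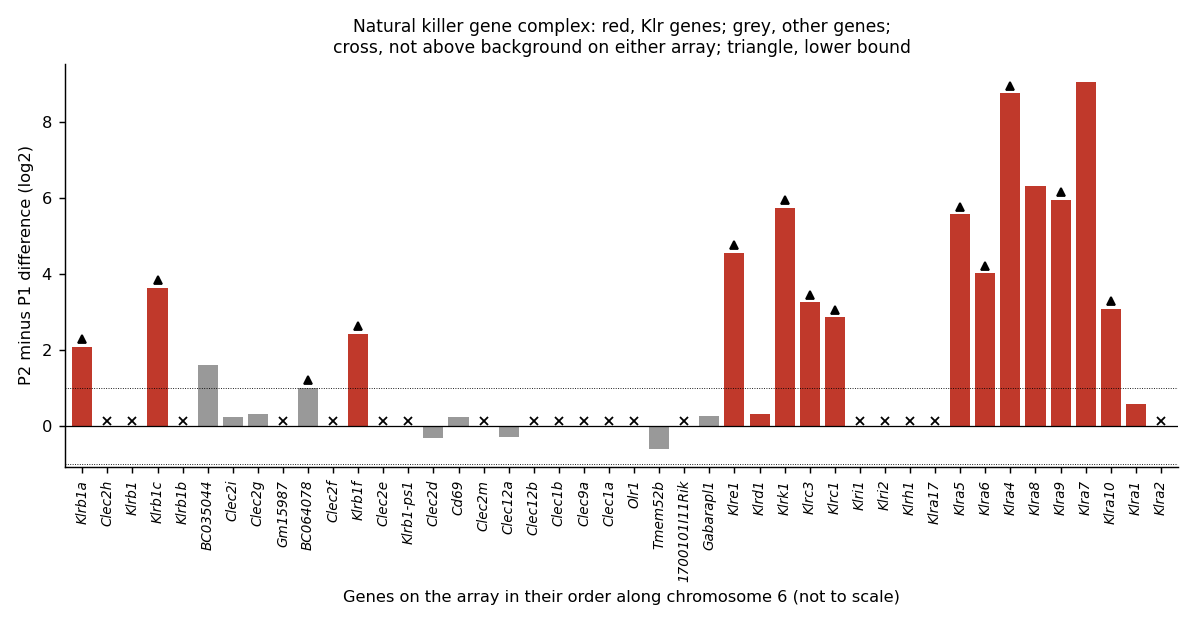
Bars give the P2 minus P1 difference (log2) of the 44 genes of the natural killer gene complex on the array, in their order along chromosome 6 and not to scale. Red bars are Klr genes, grey bars other genes, crosses genes above background on neither array and triangles lower bounds; Klra7 reaches 9.05 and 14 of 16 measured Klr genes pass the upper dotted line at 2-fold.

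Receptors of the NKG2 group, which pair with CD94 or signal through adaptors, and other lectin-like receptors of the complex were higher as well. Klrk1, which encodes the activating receptor NKG2D, stood at 1.08 in P2 and -6.26 in P1, at least 53.7-fold higher in P2. Klre1 and Klrb1c, the gene of NK1.1, were at least 23.6-fold and 12.4-fold higher, with probes of Klrb1c as low as 0.57 on the log2 scale, Klrc3 at least 9.51-fold and Klrc1, the gene of NKG2A, at least 7.24-fold. Of 8 measured genes in the list of NKG2, CD94 and other natural killer lectin receptors, 7 were higher and 0 lower (median 3.05). Klrd1, the gene of CD94 itself, was already bright in naive-phenotype cells, with levels of 5.31 in P2 and 5.000 in P1. Klrg1, a marker of terminal effector cells, was not above background on either array.

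Adaptors that carry the signals of such receptors were among the higher genes. Fcer1g, the gene of the Fc receptor gamma chain, had levels of 0.37 in P2 and -3.88 in P1, a difference of 4.25. Tyrobp, the gene of DAP12, had levels of -0.97 in P2 and -5.25 in P1, a bound of 3.70, and it was 3.35 in P3. Slamf7 differed by 4.02, the inhibitory receptor gene Lilrb4a by 3.48 and Cd160 by 1.39, whereas Cd226, the gene of DNAM-1, was lower at -1.04. In all 6 of 13 genes of this list were higher and 1 lower.

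Natural killer cell markers, which overlap with the lists above in Klra8, Klrb1c, Klre1, Tyrobp and Fcer1g, were higher in 9 of 11 measured members and lower in 0, with a median of 3.63. Their summed linear level, relative to the 75th percentile, was 40.6 in P2 and 12.6 in P1. The higher markers Eomes, Gzma and Xcl1 also belong to the transcription factor, cytotoxic and chemokine lists described below. Of the 14 markers, Ncr1, the gene of NKp46, Itga2, the gene of CD49b, and Klri2 were not above background on either array. The part of natural killer cells in these differences was not tested.

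Among cytotoxic molecules the granzyme gene Gzmm stood out. Its levels were 4.76 in P2 and -0.91 in P1, a difference of 5.67 (50.9-fold), a second probe gave 5.76, and its level was 2.90 in P3 and -0.70 in P4. Granzyme M was thus higher in P2 than on any other array. The death ligand gene Fasl had levels of 1.34 in P2 and -2.52 in P1, a difference of 3.87. Classical effector granzymes differed less: Gzma stood at 1.42 in P2 and -0.73 in P1, Gzmb at -0.64 in P2 and -2.57 in P1, and Gzmk was at least 4.13-fold higher. These 3 genes were brighter in both CD62Llow subsets, where Gzma stood at 6.80 in P3 and 6.91 in P4, and Gzmb at 5.11 and 4.09. The counts in this list were 7 higher and 0 lower of 17 measured (median 0.71).

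Among chemokine and cytokine genes a minority differed by 2-fold or more, some of them by large amounts. Ccl5, a chemokine stored by memory CD8 T cells, had levels of 7.53 in P2 and 2.38 in P1, a difference of 5.15 (35.5-fold). Xcl1, which attracts cross-presenting dendritic cells, had levels of 2.76 in P2 and -2.42 in P1, a difference of 5.19. Ccl4 and Ccl3, inflammatory chemokine genes, differed by 4.85 and 4.49, and with Ccl5 they formed a run of 3 neighbouring higher genes on chromosome 11. Ccl5 in P2 was near its levels in P3 (7.49) and P4 (7.99), while Ccl3 and Ccl4 were brighter in those subsets.

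Ifng, the gene of interferon gamma, had levels of 4.67 in P2 and 0.69 in P1, a difference of 3.99 (15.8-fold). The nearby Ifngas1, a long non-coding RNA gene, had levels of 1.83 in P2 and -1.66 in P1, a difference of 3.49. The lymphotoxin-like ligand gene Tnfsf14 differed by 3.53, and Tnf stayed within 2-fold at 0.86. Of 18 measured chemokine and cytokine genes 7 were higher and 0 lower (median 0.40), and Il2, Il4, Il10 and Il21 were not above background on either array.

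Transcription factor genes of memory and effector cells were higher in 11 of 29 measured members and lower in 2 (median 0.34). Tbx21, the gene of the T-box factor T-bet, had levels of 3.75 in P2 and -0.37 in P1, a difference of 4.12 (17.3-fold). Its partner Eomes, which sustains memory cells and CD122, had levels of 3.62 in P2 and 1.31 in P1, a difference of 2.32, and a second probe gave 2.26. Bhlhe40 differed by 2.22, Hopx by 2.004, Nfil3 by 1.27 and Prdm1, the gene of Blimp-1, by 1.21, and Runx2 was at least 5.72-fold higher. Zeb2, a factor of terminal effector cells, differed by 2.10, with its spot in a bright patch of the P2 array. Id2, an inhibitor of E proteins, was lower at -1.14.

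Factors of naive and quiescent T cells were nearly level, with 1 of 28 higher, 1 lower and a median of -0.19. Lef1 had levels of 5.35 in P2 and 6.16 in P1, a difference of -0.81, and stood at 3.89 in P3. Tcf7, the gene of TCF1, differed by -0.18, Klf2 by -0.46 and Foxo1 by -0.30. Sox4 was lower at -1.07. Myb, which supports stem-like memory cells, was the higher one, with levels of 3.35 in P2 and 1.87 in P1.

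Receptors for homeostatic and inflammatory cytokines split. Il2rb, the gene of CD122 that serves interleukins 2 and 15, had levels of 6.51 in P2 and 4.48 in P1, a difference of 2.02, and a second probe gave 2.55. Il18rap and Il18r1, the chains of the interleukin 18 receptor, had levels of 0.47 in P2 and -4.14 in P1, and of 3.98 in P2 and 2.16 in P1. Il18rap differed by 4.61 and Il18r1 by 1.82, and in P4, the CD44low CD62Llow subset, they stood at -2.999 and 1.20. Il10ra differed by 2.10, and Il7r, the naive and memory survival receptor, stood level at 6.21 in P2 and 6.03 in P1.

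The chains of the interferon gamma receptor differed in sign. Ifngr1 had levels of 5.17 in P2 and 4.23 in P1, a difference of 0.94. Ifngr2, the signalling chain, had levels of -1.53 in P2 and 1.73 in P1, a difference of -3.26 (9.59-fold lower). Tgfbr3, the gene of the TGF-beta coreceptor betaglycan, was lower too, with levels of -1.23 in P2 and 1.53 in P1, a difference of -2.75. Counts were 5 higher and 2 lower of 24 measured receptors. Of 11 feedback inhibitor genes 1 was higher, Socs2 at 1.38, and 0 were lower. The Socs2 call was lost after normexp background correction (0.67), with the mean over its probes (0.99) and with its other probe (0.59).

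Homing receptor genes held the largest difference on the lower side as well as several higher genes. Ccr9, which guides cells to the small intestine and thymus, had levels of -0.94 in P2 and 4.09 in P1, a difference of -5.03 (32.6-fold lower). In P4 it stood at 4.11, at the P1 level, and in P3 at 1.65, so that P2 was the lowest of the 4 arrays. Cxcr3, which guides cells to inflamed tissue, had levels of 5.11 in P2 and 1.73 in P1, a difference of 3.37. Cxcr5, which guides cells to B cell follicles, had levels of 2.21 in P2 and -1.46 in P1, a difference of 3.67. Ccr2, a receptor gene for inflammatory chemokines, was at least 14.8-fold higher. S1pr5 and Cx3cr1, receptors of effector memory cells, were at least 5.26-fold and 3.55-fold higher, and both were brighter in P3, at 1.69 and 4.13. Ccr7 stood at 6.74 in P2 and 7.29 in P1 and S1pr1 at 4.06 in P2 and 4.54 in P1, so that receptors of lymph node entry and exit were within 2-fold. In all, 8 of 22 measured receptors were higher and 2 lower, the other lower one being Gpr34 with a bound of -2.33 and a second probe at -0.66.

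Integrin genes showed a similar split. Itgae, the gene of CD103 that binds E-cadherin on epithelium, had levels of 0.09 in P2 and 3.51 in P1, a difference of -3.43 (10.8-fold lower). Its levels were 2.50 in P3 and 3.53 in P4. Itgb1 had levels of 3.94 in P2 and 1.82 in P1, a difference of 2.12. Itgax, the gene of CD11c, was at least 41.5-fold higher with levels of 0.75 in P2 and -4.62 in P1; a second probe was not above background. Of 26 measured adhesion genes 2 were higher and 2 lower (median -0.02), so the list as a whole did not lean either way.

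Genes of coinhibitory receptors and of exhaustion were higher in 8 of 21 measured members and lower in 0 (median 0.39), mostly from a low base. Spry2, an inhibitor of growth factor signalling, had levels of 0.49 in P2 and -4.53 in P1, a difference of 5.02, but a second probe differed by 0.38. Lag3 was at least 4.97-fold higher with levels of -2.36 in P2 and -5.72 in P1, against 2.67 in P3 and 2.34 in P4, and its second probe differed by 0.24. Tigit differed by 1.68 and Entpd1, the gene of CD39, by 1.45, and Havcr2, the gene of TIM-3, was not above background on either array. Costimulatory receptor genes had 0 higher and 1 lower of 16.

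Of 24 measured genes of S100 proteins, annexins, galectins and related proteins, which include markers of antigen-experienced T cells, 7 were higher and 0 lower (median 0.43). S100a6 had levels of 3.43 in P2 and -2.71 in P1, a difference of 6.13 (70.3-fold), and S100a4 had levels of 2.48 in P2 and -2.51 in P1, a difference of 4.98. Both were brighter still in P3, at 6.55 and 7.44. The annexin gene Anxa2 differed by 2.88, the scaffold gene Ahnak by 2.07 (0.55 to 2.33 over 3 probes), and the galectin genes Lgals3 and Lgals1 by 3.65 as a bound and 1.59. Of 7 measured Ly6 antigens 2 were higher and 2 lower (median 0.10). Ly6c2, a memory-linked surface antigen, stood at 7.86 in P2 and 6.59 in P1. Its near-identical copy Ly6c1 stood at 7.75 in P2 and 6.54 in P1. The lower members were Ly6d at -1.99 and Ly6k at -1.41.

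Further genes with large differences belonged to none of the 28 gene lists. Plek, the gene of the protein kinase C substrate pleckstrin, had levels of 3.996 in P2 and -3.16 in P1, a difference of 7.15 against 2.42 for a second probe, and was similar in P3 at 4.42. Cd163l1, a scavenger receptor gene best known from gamma delta T cells, had levels of 4.34 in P2 and -2.40 in P1, a difference of 6.74 (107-fold), and was lower in P3 at 0.89. Its relative 5830411N06Rik differed by 4.96. The other measured markers of gamma delta and innate-like T cells, Sox13, Maf and Ccr6, lay within 2-fold, and Zbtb16, Blk, Il17a, Il23r and Il1r1 were not above background on either array. The summed level of the 5 measured markers was 24.5 in P2 and 0.783 in P1; the part of such cells was not tested.

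The kinase gene Lrrk1 differed by 5.53, the ATP-sensitive potassium channel gene Kcnj8 by 5.50 and Samd3 by 5.56 (2.45 to 5.58 over 4 probes). Dlg5, a scaffold gene, was at least 82.9-fold higher, but a second probe differed by 0.83. The cysteine protease inhibitor genes Ctla2a and Ctla2b, which are near-identical, differed by 4.49 and 4.84. Ctla2a was bright, with levels of 6.47 in P2 and 1.98 in P1. Tgm6 and Cd40 had log2 bounds of 13.52 and 10.90, larger than any other difference, and both spots lay in bright patches of the P2 array.

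**Figure D3:**
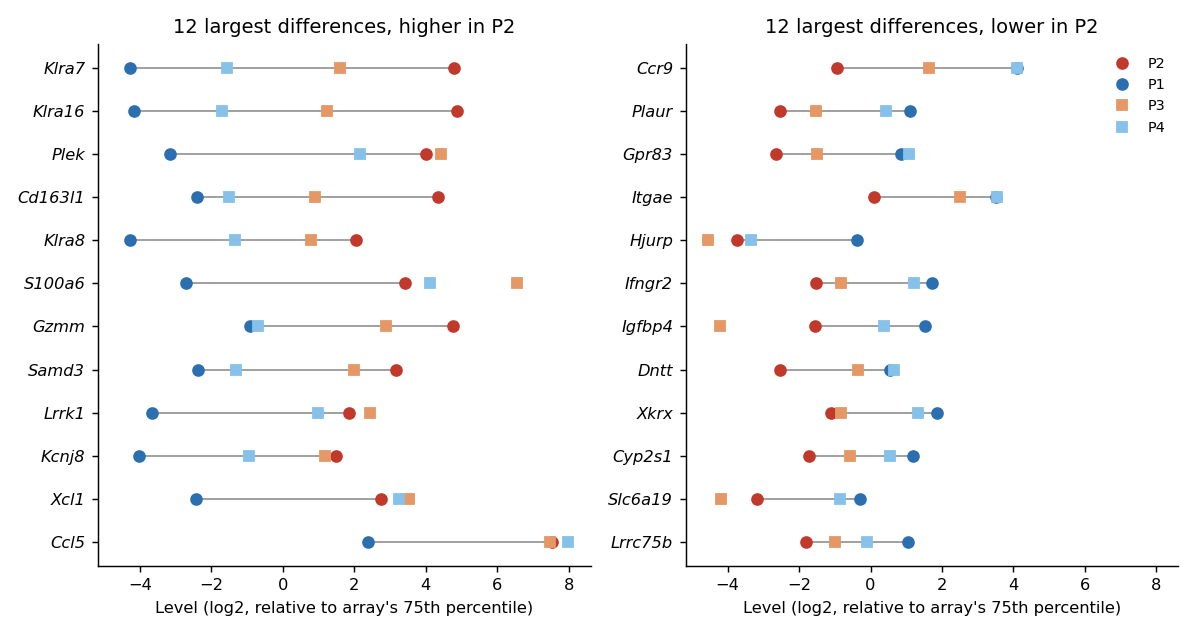
Levels (log2 relative to the array's 75th percentile) of the 12 genes with the largest differences in each direction among those above background on both arrays. Circles are P2 (dark red) and P1 (dark blue), joined by a line, and squares are P3 (orange) and P4 (light blue); P2 lies right of P1 in the left panel and left of it in the right panel, and Hjurp had its spot in a bright patch of the P1 array.

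Genes that mark late thymocytes and recent thymic emigrants were the group with most lower members: 9 of 22 measured were lower and 0 higher, with a median of -0.75. Apart from Ccr9 and Itgae, these included Dntt, the gene of terminal deoxynucleotidyl transferase that adds bases at receptor joints, with levels of -2.53 in P2 and 0.53 in P1, a difference of -3.07. Plaur, the gene of the urokinase receptor, had levels of -2.53 in P2 and 1.1 in P1, a difference of -3.63. Gpr83, an orphan receptor gene, had levels of -2.66 in P2 and 0.86 in P1, a difference of -3.52. These transcripts were also low in P2 relative to P4, where Dntt stood at 0.65, Plaur at 0.42 and Gpr83 at 1.09. Igfbp4, an insulin-like growth factor binding protein gene of naive T cells, had levels of -1.54 in P2 and 1.53 in P1, a difference of -3.07, and was lower still in P3 at -4.21. Dapl1 differed by -1.13 from a bright P1 level of 5.79. The bound of Arpp21 came from a bright patch of the P1 array. Rag1, Rag2 and Ptcra, genes of immature thymocytes, were not above background on either array.

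Other lower genes with large differences were Xkrx at -2.97 (a second probe at -0.78), the cytochrome gene Cyp2s1 at -2.90, the neutral amino acid transporter gene Slc6a19 at -2.89, and Lrrc75b at -2.87. Hjurp, a centromere chaperone gene, differed by -3.38, with its spot in a bright patch of the P1 array. Among bounds, Tex13a and the plexin gene Plxna2 had log2 bounds of -3.32 and -3.20 outside such patches, whereas Calb2, Sval1, Pipox, Clec4d and Galntl6 had spots inside them.

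Cell cycle genes were higher in 10 of 43 measured members and lower in 0 (median 0.50), at modest sizes. After normexp background correction 5 of 43 were higher, and 7 of 38 were when both arrays had to be above background. Tk1, a DNA synthesis enzyme gene, had levels of -0.93 in P2 and -2.89 in P1, a difference of 1.96. Ccnb2, the gene of cyclin B2, differed by 1.93, Mki67, the gene of the proliferation antigen Ki-67, by 1.796 and Birc5, the gene of survivin, by 1.37. All of these were brighter in P3, where Mki67 stood at 2.63 and Ccnb2 at 2.06. The inhibitor genes Cdkn1a and Cdkn3 differed by 1.16 and 1.29, the second Cdkn3 probe by 0.74, and Cdkn1b, the inhibitor p27, by -0.35. After normexp correction Cdkn1a and Cdkn3 fell within 2-fold, at 0.40 and 0.64.

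Survival genes of the BCL2 family were level in most members, with 2 of 14 higher and 0 lower. The anti-apoptotic Bcl2l1 had levels of 3.51 in P2 and 1.96 in P1, and the pro-apoptotic Bbc3, the gene of PUMA, had levels of 4.10 in P2 and 2.60 in P1. Bcl2 itself differed by 0.46.

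Metabolic genes differed little as groups. Ribosome biogenesis genes had 0 of 30 higher and 0 lower (median 0.09). Of 24 glycolytic genes, Hk2, a hexokinase gene, was higher at 1.44 and Ldhb, a lactate dehydrogenase gene, was lower with levels of -0.41 in P2 and 1.70 in P1. Genes of fatty acid use had 2 higher of 22. One was Aqp9, the gene of a glycerol channel that supports memory cell survival, with levels of 1.35 in P2 and -2.66 in P1, a difference of 4.01; a second, dim probe differed by -0.34 as a bound. The other was Gpat3, a triglyceride synthesis enzyme gene, with a bound of 4.17 and a second probe at 1.04. Cpt1a, the gate enzyme of mitochondrial fatty acid oxidation, differed by 0.23. Cholesterol and fatty acid synthesis genes had 0 higher and 3 lower of 29 (median -0.31). Sqle, the squalene epoxidase gene, had levels of -0.95 in P2 and 0.88 in P1.

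Type I interferon response genes were lower in 2 of 30 and higher in 0 (median -0.23), with Oas2 at -1.21. Of 9 genes of G protein signalling regulators 1 was higher, Rgs16 at 1.61. Regulatory T cell genes had 3 higher and 2 lower of 15, among them Ikzf2, the gene of Helios, at 1.24 and Ikzf4 at -1.48, with another Ikzf4 probe at -0.12. Foxp3, which defines regulatory T cells, was dim and level at -3.81 in P2 and -3.50 in P1.

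**Figure D4:**
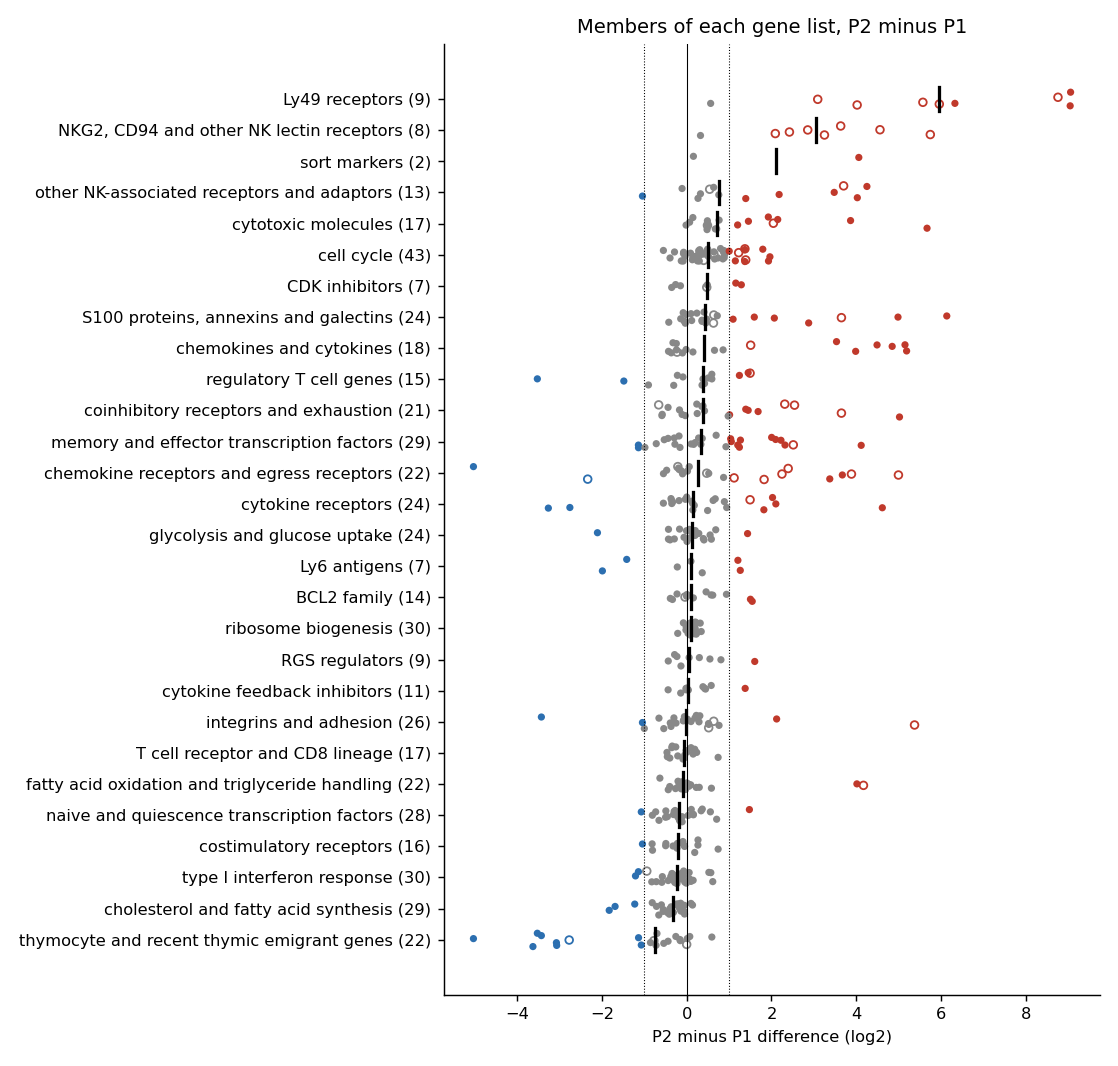
P2 minus P1 differences (log2) of the measured members of each gene list, with the number measured in brackets. Filled points are genes above background on both arrays, open points bounds, black bars list medians and dotted lines 2-fold; red and blue points lie at least 2-fold higher and lower, and the Ly49 median is 5.96 and the thymocyte median -0.75.

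Markers of other cell types were read beside these groups, since a sort can admit other cells. Among markers of type 2 dendritic cells and class II presentation there were 4 of 9 measured members on the higher side and 1 on the lower. H2-Ab1 had levels of 1.09 in P2 and -0.60 in P1 and H2-Eb1 of 0.94 in P2 and -1.17 in P1, H2-Aa was at least 4.25-fold higher, and H2-DMa was lower at -1.54. The summed level of this list was 122 in P2 and 110 in P1, and Cd209a, Sirpa and Clec4a4 were not above background on either array. Type 1 dendritic cell genes had 3 higher and 1 lower of 10, with a summed level of 34.4 in P2 and 46.2 in P1, and Xcr1, Clec9a, Batf3 and Tlr3 were not above background. Cd8a, Itgax, Irf8 and Itgae in that list are also T cell genes, and Cd8a alone made up most of the summed level on both arrays.

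Macrophage and monocyte genes had 3 of 11 higher, namely Ccr2, Mpeg1 and Aif1 as bounds, and 0 lower, with a summed level of 72.1 in P2 and 83.5 in P1. Adgre1, Lyz2 and C1qa were not above background on either array. B cell genes had 0 higher and 0 lower of 5, with Cd79a, Ms4a1 and Pax5 not above background. The summed B cell level was 6.07 in P2 and 6.34 in P1. Cd4 stood at -0.38 in P2 and -0.40 in P1, and in the CD4 T cell list Cxcr5 and Zbtb7b were higher. Plasma cell genes had 2 higher of 6, Prdm1 and Pou2af1, and plasmacytoid dendritic cell genes 2 higher and 3 lower of 9. Innate lymphoid cell genes had 1 higher and 1 lower of 5, and the erythroid list had 1 higher of 3, Hba-a2 at 1.05. Neutrophil, mast cell, platelet and stromal lists had none past 2-fold among 6, 2, 3 and 2 measured members. The part of such cells in the differences between P2 and P1 was not tested.

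**Figure D5:**
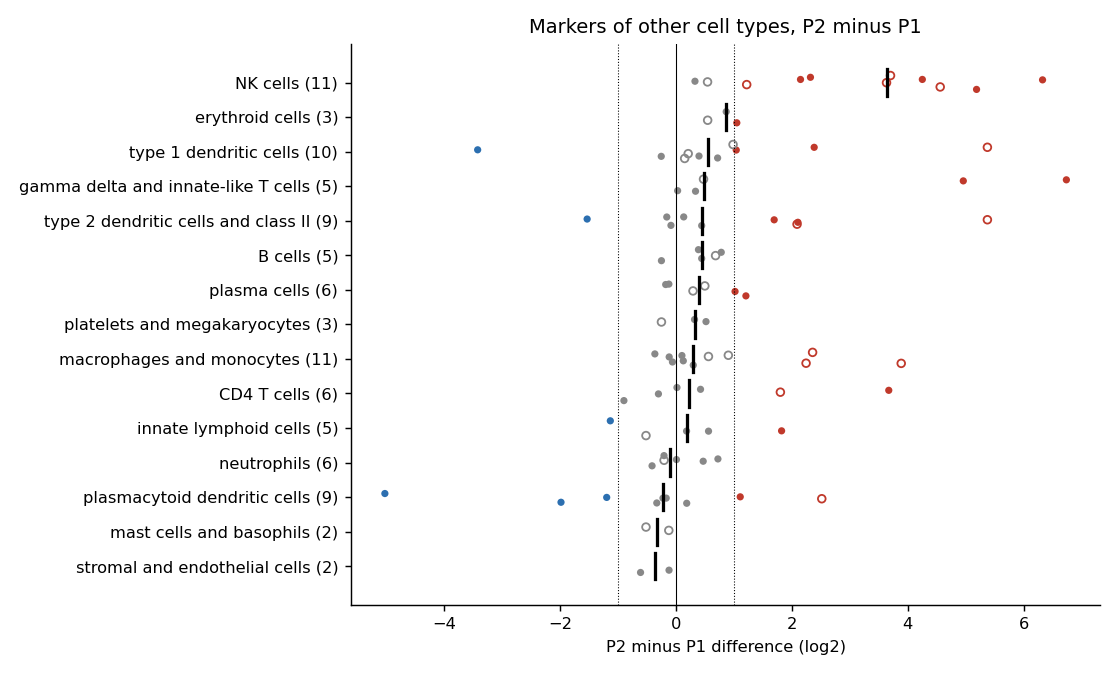
P2 minus P1 differences (log2) of measured markers of other cell types, with the number measured in brackets. Filled points are genes above background on both arrays, open points bounds, black bars list medians and dotted lines 2-fold; the natural killer cell list has the highest median, 3.63.

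The 240 genes at least 4-fold higher in P2 had a median level of -0.97 in P2 and -4.49 in P1, against -0.09 in P3 and -2.05 in P4. Of these genes, 166 lay nearer to P2 than to P1 in P3 and 112 did so in P4. In 87, which the choice of high P2 genes favours, P2 exceeded every other array by at least 2-fold. The choice by the P2 to P1 gap also shapes the counts of 166 and 112. Bright patches of the P2 array held 54 of the 240 genes and 42 of these 87. The 91 genes at least 4-fold lower had medians of -3.87 in P2 and -1.26 in P1, against -4.18 in P3 and -2.01 in P4. Of these genes, 75 lay nearer to P2 than to P1 in P3 and 39 in P4. In 20, which the choice of low P2 genes favours, P2 was below every other array by at least 2-fold. Bright patches of the P1 array held 35 of the 91 genes and 0 of these 20. Such patches are called by spots raised in P1 above every other array, so the 0 is no check of the low calls. P3 minus P4 compares CD44high with CD44low cells among CD62Llow cells on the other 2 arrays. Of 805 genes at least 2-fold apart between P2 and P1 and measured in P3 or P4, 301 were higher and 113 lower by 2-fold in both comparisons. In 239 and 131 genes, higher and lower in P2, the P3 to P4 difference was within 2-fold. In 7 and 14 genes, higher and lower in P2, it was at least 2-fold the opposite way. The share of all measured genes past 2-fold between P3 and P4 is not given here, so these counts do not measure agreement.

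Promoter letters were searched on both strands in the windows of measured genes. The motifs were GGTGTGA (the T-box half-site), TGTGGTT (RUNX), CTTTGAT (TCF1 and LEF1) and GGGTGTG (KLF); the T-box and KLF letters can overlap in the bases GGTGTG. Of 186 genes at least 4-fold higher that had a window, 5.91% held the T-box letters, 9.68% RUNX, 2.15% TCF1 and LEF1 and 12.9% KLF. Of 70 genes at least 4-fold lower that had a window, 5.71% held the T-box letters, 2.86% RUNX and 5.71% TCF1 and LEF1, and 7 genes held KLF. Over all 10341 measured genes with a window the shares were 4.35%, 4.83%, 3.09% and 9.79%. The windows of Cxcr3, a higher gene with a RUNX match (chrX:101734098-101734397, minus strand), and of Gpr83, a lower gene with a T-box match (chr9:14859960-14860259, plus strand), show such matches in capitals.
Cxcr3: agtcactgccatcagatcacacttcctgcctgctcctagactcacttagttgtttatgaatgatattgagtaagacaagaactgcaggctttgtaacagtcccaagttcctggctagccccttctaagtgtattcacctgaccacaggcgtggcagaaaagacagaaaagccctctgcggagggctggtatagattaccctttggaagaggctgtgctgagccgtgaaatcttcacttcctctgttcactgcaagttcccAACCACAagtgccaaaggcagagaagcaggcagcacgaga
Gpr83: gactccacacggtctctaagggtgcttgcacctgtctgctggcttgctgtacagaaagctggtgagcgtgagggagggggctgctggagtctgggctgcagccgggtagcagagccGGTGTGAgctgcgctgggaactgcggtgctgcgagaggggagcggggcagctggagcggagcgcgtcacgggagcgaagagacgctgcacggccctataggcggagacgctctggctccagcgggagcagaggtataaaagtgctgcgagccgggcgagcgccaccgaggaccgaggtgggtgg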

How the data were processed

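RNA of the sorted CD8 T cells was converted to cDNA with random primers and labelled with Cy3 for single-colour Agilent arrays, per the labels' protocols. The authors obtained spot intensity from the scans with Agilent Feature Extraction 11.0.1.1, per the file headers, as a processed signal that is background-subtracted and not normalized between arrays. The authors' deposited value table gives 26188 probes in log2, and its median was 8.85 in every column. Its sorted values were the same in each column, so it was read as quantile normalized, and it served as an alternative. The sources used here do not name the tool that made it.

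Each array held 62976 spots, of which 59305 were not controls, for 56605 probes. Outlier spots, 122 to 152 per array, were dropped, and no spot was saturated. Log2 signals were centred on each array's 75th percentile and averaged over repeated spots. RefSeq accessions named 32994 probes (58.3%) for 22911 genes, by way of a GRCm38.p6 gene table, and the probe with the highest mean over the 4 arrays stood for a gene. A gene entered if well above background in P2 or P1. Where 1 side was not, any value under that array's dimmest signal well above background was raised to it, which makes the difference a bound. A bright patch was called where at least 2 spots (4 in P3) within 32 position units were at least 2-fold above the same spots on every other array. The counting was tested on simulated data, with changes placed only in genes well above the background limit and with spot noise alone. That simulation did not test bounds, changes in dim genes, bright patches or variation between sorts.

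The comparison, the 28 gene lists, the 15 marker lists and the rule for bright patches were chosen with earlier results of these data known. Named genes were the 12 largest differences and 6 largest bounds in each direction, sort and lineage markers, and up to 10 members of each list. Some of these, and some members counted in lists, are not reported here, and others named were chosen after their values were seen. Sequences and gene order came from RefSeq tables. Alternatives were other normalizations, filters and probe choices, a 4-fold limit and limma 3.58.1 normexp correction (offset 50) on median spot and background signals, the columns used here. Python 3.11.15, numpy 2.4.6, pandas 2.3.3 and R 4.3.3 were used.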

Additional observations from a re-analysis of the deposited data

Results flagged for a closer look

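In 10 genes above background on both arrays and outside bright patches of an array, CD44high and CD44low cells differed by at least 2-fold one way among CD62Lhigh cells (P2 minus P1) and the other way among CD62Llow cells (P3 minus P4). With 1 array per subset the difference between these comparisons was not tested. Ly6d, a lymphoid progenitor and B lineage antigen gene, differed by -1.99 and 3.74, and stood at -4.17 in P2 and -2.19 in P1, 2.35 in P3 and -1.39 in P4. Tcf4, the gene of the plasmacytoid dendritic cell factor E2-2, differed by -1.20 and 3.17, and the tetraspanin genes Cd81 and Cd9 by -1.40 and 2.59, and by -1.44 and 1.05. Tmem176b differed by -1.41 and 3.48, the integrin gene Itga7 by -1.28 and 2.85, the collagen receptor gene Ddr1 by -1.02 and 1.92, and Aunip by -1.03 and 2.29. Pcsk4, at 1.12 and -1.13, and Pomgnt2, at 1.02 and -2.89, went the other way. The class II gene H2-Ab1 stood at 6.44 in P3, above its level on each other array, and the part of antigen-presenting cells in these opposite differences was not tested.

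Probes without a gene name also gave signal. Of 10302 such probes above background in P2 or P1, 326 (3.16%) were at least 2-fold higher in P2 than in P1 and 218 (2.12%) at least 2-fold lower.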

How the results depend on the processing

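The counts of 616 higher and 328 lower genes stayed within 1.5-fold under quantile normalization, median scaling over probes well above background, the mean over probes, the probe chosen over P2 and P1 alone, outlier spots kept and bright patches left out (527 and 260). They became 338 and 168 after normexp correction, 393 and 208 in the authors' processed values, 389 and 217 when both arrays had to be above background, 1228 and 879 without filter or floor, and 240 and 91 at a 4-fold limit; that these move with the genes tested or the limit follows from their construction for all but normexp and the authors' values, for which the cause was not tested. Of 152 genes named by the rule that were at least 2-fold apart, all with a value kept their direction under each of the 9 settings that change values, and 33 fell within 2-fold after normexp (Zeb2, Tigit, Entpd1, Cx3cr1, Sox4 and Hk2 among them), Ikzf4 and Socs2 with the mean over probes and Socs2 with the other choice of probe. The gamma delta list median of 0.47 ran from 0.10 to 2.68 over these settings and the Ly49 median of 5.96 from 3.82 to 7.78. For NKG2, CD94 and other natural killer lectin receptors the median (3.05) ran from 1.65 to 3.08. For natural killer cell markers (3.63) it ran from 1.94 to 3.66. For cell cycle genes the median (0.50) ran from 0.33 to 0.53 and for chemokines and cytokines (0.40) from 0.15 to 0.43. No paired analysis was possible because each subset has 1 array. Dim genes were called more often: at mean levels below -3, 12.3% of genes were called higher and 6.09% lower, against 0.725% and 0.544% at levels of 3 or more.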

Other observations

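Counts in gene families outside the lists are to be read against the shares over all measured genes, 4.75% higher and 2.53% lower. Of 8 measured Gimap genes, GTPases of lymphocyte survival, 0 were at least 2-fold apart, which is near those shares for so few genes. Of 78 mitochondrial ribosomal protein genes 0 were at least 2-fold apart, with a median of -0.05. In the respiratory chain and ATP synthase families 1 of 84 genes was higher, Cox6a2 at 1.11. Of 36 potassium channel genes 5 were higher, led by Kcnj8 at 5.50, and 5 lower, led by Kcnmb4 at -2.49.

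Ncf1, a subunit gene of the phagocyte oxidase, was lowest in P2 of the 4 arrays and outside bright patches of the P1 array. It stood at -1.58 in P2 and 0.64 in P1, and at 0.31 in P3 and 0.32 in P4. Genes highest in P2 included Drc1, a ciliary gene, at 3.54 in P2 and 0.69 in P1, -0.39 in P3 and 0.11 in P4, and G0s2, an inhibitor of the triglyceride lipase, at -0.22 in P2 and -2.14 in P1, -2.21 in P3 and -2.56 in P4. These genes were chosen after their values were seen.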
